A study of Mus musculus with 6 samples.

Results

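The MS4A genes (membrane-spanning 4-domains, subfamily A) of myeloid cells were described here as a list of 10 genes given by name: Ms4a4a, Ms4a4b, Ms4a4c, Ms4a4d, Ms4a6b, Ms4a6c, Ms4a6d, Ms4a7, Ms4a8a and Ms4a14. All 10 were among the 55335 genes of the table, and 7 of them were among the 13367 genes whose level was high enough for a test. The samples were 6 RNA-seq libraries of mouse bone marrow-derived macrophages (BMDMs), 3 labelled Cd177 WT and 3 labelled Cd177 KO. BMDMs are macrophages grown from marrow cells in culture, here for 7 days with M-CSF at 25 ng/ml. By the labels the BMDMs of both groups were of WT genotype, and the study's methods name C57BL/6 as the strain. What differed was the genotype of the neutrophils with which they were kept for 24 h. Those neutrophils were taken by magnetic sorting from contused spinal cords of adult male Cd177 WT or Cd177-/- mice at 3 days post injury (3 dpi). The knockout is given as Cd177-/-, with no cell type to which the deletion is limited, and how many animals gave the neutrophils of a library is not given in the sources used here. Macrophages were then recovered by FACS, for which the labels name no gate, so a remainder of neutrophils in a library is possible. The comparison asks how the Cd177 genotype of lesion neutrophils relates to the RNA of the macrophages beside them. Libraries are called WT or KO below for the label of the neutrophils, not for the genotype of the sequenced macrophages.

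MS4A proteins are small membrane proteins that cross the plasma or endosomal membrane several times and associate with other receptors, whose signalling or traffic they tune. The family is best known for MS4A1 (CD20) of B cells and MS4A2, the beta chain of the high-affinity IgE receptor of mast cells, while the MS4A4, MS4A6 and MS4A7 branches are expressed mainly by monocytes and macrophages. In the human brain, variation at the MS4A locus is associated with the risk of Alzheimer disease and with the amount of soluble TREM2, a receptor of microglia. Mice carry more copies of the MS4A4 and MS4A6 branches than humans do, which is why several members here share a number and differ by a letter.

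All 10 genes lie on chromosome 19 within 537.379 kb (GRCm38, GENCODE annotation, 11067471 to 11604849), inside a cluster of MS4A genes that spans 678.559 kb. In order of position they are Ms4a8a, Ms4a14 and Ms4a7 on the minus strand, Ms4a4a, Ms4a4c, Ms4a4b, Ms4a6c, Ms4a6b and Ms4a4d on the plus strand, and Ms4a6d on the minus strand. The MS4A6 genes are close copies. Over their coding sequence Ms4a6b and Ms4a6c shared 85.4% of aligned bases, Ms4a6b and Ms4a6d 81.2%, and Ms4a6c and Ms4a6d 79.0%. The first 90 coding bases of the trio, spliced from the GENCODE exons, are shown because their differences between the groups were of unlike size although the genes are so alike. Capitals mark the 19 positions at which they are not identical, and the other 71 positions are shared.
Ms4a6b: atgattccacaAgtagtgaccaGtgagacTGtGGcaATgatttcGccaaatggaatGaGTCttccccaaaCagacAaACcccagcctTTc
Ms4a6c: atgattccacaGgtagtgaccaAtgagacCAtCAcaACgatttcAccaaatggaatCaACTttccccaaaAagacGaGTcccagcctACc
Ms4a6d: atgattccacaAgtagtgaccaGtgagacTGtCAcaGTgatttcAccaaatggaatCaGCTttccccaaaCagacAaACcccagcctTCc

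Among the MS4A4 genes, Ms4a4b and Ms4a4c were the closest pair at 91.7% identity, followed by Ms4a4c with Ms4a4d at 87.9% and Ms4a4b with Ms4a4d at 85.6%. Ms4a4a stood apart from the rest of its branch, with 68.3% identity to Ms4a4c, and the highest identity between branches was 66.9%, for Ms4a6d with Ms4a8a (Ms4a14, whose coding sequence of 3696 bases is far longer, was left out of the alignments). Shared sequence can cause reads to be assigned to the wrong copy. Of all stretches of 100 bases in the annotated transcripts, 1.66% of those of Ms4a4c and 0.473% of those of Ms4a4b occurred in another MS4A gene, and none of those of the other 8 members did. How reads that match several genes were counted is not given in the sources used here, so the values of Ms4a4b and Ms4a4c carry that uncertainty.

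The promoters of 4 members are shown for the following reason: Ms4a7 was higher in the KO libraries, Ms4a14 is its neighbour and was not called, and Ms4a4a and Ms4a4c, next along the chromosome, were lower. Each is the stretch of 250 bases before the RefSeq start in GRCm38.p6, 5' to 3' on the strand of the gene. The windows are chr19:11336147-11336396 (minus) for the outer of the annotated starts of Ms4a7, chr19:11314455-11314704 (minus) for Ms4a14, chr19:11375238-11375487 (plus) for Ms4a4a and chr19:11407411-11407660 (plus) for Ms4a4c. The windows of Ms4a7, Ms4a14 and Ms4a4a are intergenic in GENCODE, and that of Ms4a4c lies in an intron of Ms4a4c itself. Capitals mark matches to any of the motifs named after the sequences.
Ms4a7: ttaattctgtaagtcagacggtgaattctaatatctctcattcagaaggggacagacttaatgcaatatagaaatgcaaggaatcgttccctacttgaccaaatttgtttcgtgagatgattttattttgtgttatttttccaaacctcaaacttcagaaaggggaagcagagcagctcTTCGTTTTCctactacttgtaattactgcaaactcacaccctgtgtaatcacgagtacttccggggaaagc
Ms4a14: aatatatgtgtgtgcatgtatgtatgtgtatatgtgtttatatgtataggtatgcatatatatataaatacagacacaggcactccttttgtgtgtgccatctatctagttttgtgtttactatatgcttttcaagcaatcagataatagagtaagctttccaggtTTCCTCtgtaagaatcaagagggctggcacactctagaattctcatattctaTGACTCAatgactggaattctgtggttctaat
Ms4a4a: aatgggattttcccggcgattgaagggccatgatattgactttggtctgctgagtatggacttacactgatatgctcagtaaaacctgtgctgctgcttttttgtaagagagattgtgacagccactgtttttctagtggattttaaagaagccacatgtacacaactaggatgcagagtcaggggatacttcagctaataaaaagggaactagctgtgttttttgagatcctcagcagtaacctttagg
Ms4a4c: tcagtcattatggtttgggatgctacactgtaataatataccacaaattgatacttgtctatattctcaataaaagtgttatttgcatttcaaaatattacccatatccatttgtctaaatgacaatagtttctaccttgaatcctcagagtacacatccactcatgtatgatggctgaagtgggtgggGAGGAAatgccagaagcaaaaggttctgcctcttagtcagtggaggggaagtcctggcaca

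Motifs were searched by letters on both strands in the 10 windows that RefSeq gave for 9 of the members, 2 of them for Ms4a7. The core of the interferon-stimulated response element, GAAANNGAA, occurred in 4 of the 10 windows (Ms4a6b, Ms4a6c and both starts of Ms4a7) and in 7.13% of all 32851 RefSeq promoter windows. The AP-1 motif TGANTCA occurred in 3 (Ms4a14, Ms4a8a and the inner start of Ms4a7) and in 6.75% of all. The ETS and PU.1 core GAGGAA occurred in 3 (Ms4a14, Ms4a4b and Ms4a4c) and in 23.3% of all. No member window held the gamma-activated sequence TTCNNNGAA, which occurred in 7.02% of all. Matches of different motifs did not overlap in the members' windows. These are matches of letters only, and whether any protein binds there was not measured.

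Levels were deposited as FPKM, fragments scaled by transcript length and by the mapped fragments of the library, a unit in which levels of different genes can be compared per length. Depth was not stated, and steps between low values implied 17600000 to 20300000 fragments per library. Differences were tested with limma on log2(FPKM + 0.5) over the genes whose mean reached 0.5 FPKM, and a gene was called at a Benjamini-Hochberg adjusted p under 0.05. A fold change on this scale understates the change of low genes. Nothing in the labels says that the replicates came from separate cultures, so p-values measure the spread between these libraries, which may be technical. The median gene was shifted by 0.19 (log2, KO minus WT), and 72.0% of all calls were higher in KO against 47.7% after scaling to median-of-ratios size factors, so each tested member is also given relative to that shift. The Cd177 transcript itself measured 0.544, 0.309 and 0.521 FPKM in the WT libraries and 1.79, 1.84 and 2.28 in the KO libraries. Since the sequenced BMDMs were Cd177 WT in both groups, it does not check the labels directly. By label the neutrophils of the KO libraries were Cd177-/-, yet the transcript was higher there, and its source was not tested. Macrophage genes were abundant in every library, with Cd68 at 456 FPKM or more and Csf1r at 232 or more. Not all of them were level: Cd14, a co-receptor for bacterial lipopolysaccharide, measured 911 to 1182 FPKM in WT and 93.7 to 109 in KO (difference -3.33), and Mrc1, the mannose receptor, 26.3 to 29.4 and 213 to 225 (difference 2.96).

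Several genes listed for other cell types differed between the groups, though some lists rested on 1 tested gene. For comparison, 27.1% of all genes tested were called higher and 10.5% lower. Of 12 neutrophil genes tested, 10 were higher and 1 lower in KO, and the list summed to 202 to 262 FPKM in WT and 557 to 572 in KO. Cd177 itself was among the 10 (difference 1.37, limma adjusted p = 0.000827). Mmp8 was the gene called lower (19.5 to 24.5 FPKM in WT and 9.27 to 10.2 in KO). Ly6g, too low for a test, was at 0 in all WT libraries and between 0.403 and 0.66 in KO. The monocyte list (6 tested, 3 higher, 2 lower) summed to 39.3 to 47.1 and 55.5 to 58.4 FPKM, and the macrophage list (10 tested, 3 higher, 1 lower) to 6736 to 8084 and 7606 to 8299, with 1 higher and 2 lower after median-of-ratios scaling. B cell genes (4 tested, 3 higher, 0 lower) summed to 5.59 to 7.39 FPKM in WT and 20 to 21 in KO. Ighm measured 0.39, 0.293 and 0.0573 FPKM in WT and 9.66, 9.43 and 10.5 in KO, and Cd79b and Ebf1 were also higher (differences of 1.80 and 0.65), while Ighd was at 0 throughout. In the T and NK cell list, 1 gene, Cd28, could be tested and was higher, with Cd3d at 0 throughout. Cd28 measured 1.62 to 1.77 FPKM in WT and 7.77 to 8.64 in KO, most of the list's sums (2.27 to 2.49 and 8.47 to 10). In the dendritic cell list 1 gene, Itgax, was tested and was higher, and it was not called after median-of-ratios scaling. At 27.2 to 42.9 FPKM in WT and 51.6 to 65.4 in KO it made up most of the list's sums (27.8 to 44.1 and 52.0 to 65.7). Among the genes too low for a test, all at 0.787 FPKM or less, Xcr1, Clec9a and Ccr7 were lower in KO and Zbtb46 higher. Siglech and Cd209a were at 0 in WT and at 0.0701 FPKM or less in KO, with overlap, and Flt3 was at 0 throughout. Levels this low rest on few fragments, and none of these differences was tested. In the mast cell list 1 gene, Hdc, was tested and was lower, and 4 of 8 genes were at 0 throughout. Hdc measured 1.51 to 1.81 FPKM in WT and 0.237 to 0.279 in KO, most of the list's sums (1.53 to 1.86 and 0.384 to 0.464). All 24 interferon-response genes were lower in KO, with a median of -4.21 and sums of 1968 to 2304 and 211 to 230.3 FPKM. The part of these differences in the values of the MS4A genes was not tested, and in bulk samples fewer cells of a type and less RNA per cell cannot be told apart.

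Of the 7 members tested, 4 were lower in KO (Ms4a6d, Ms4a4a, Ms4a6b and Ms4a4c), 1 was higher (Ms4a7) and 2 were not called (Ms4a6c and Ms4a14). Over all genes tested, 10.5% were called lower and 27.1% higher. The median difference of the 7 members was -0.57, against 0.19 over all genes. For each of the 7 the ranges of the groups did not overlap, as was the case for 51.9% of all genes tested. The summed level of the members fell between 562 and 651 FPKM in the WT libraries and between 397 and 429.5 in the KO libraries.

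**Figure D1:**
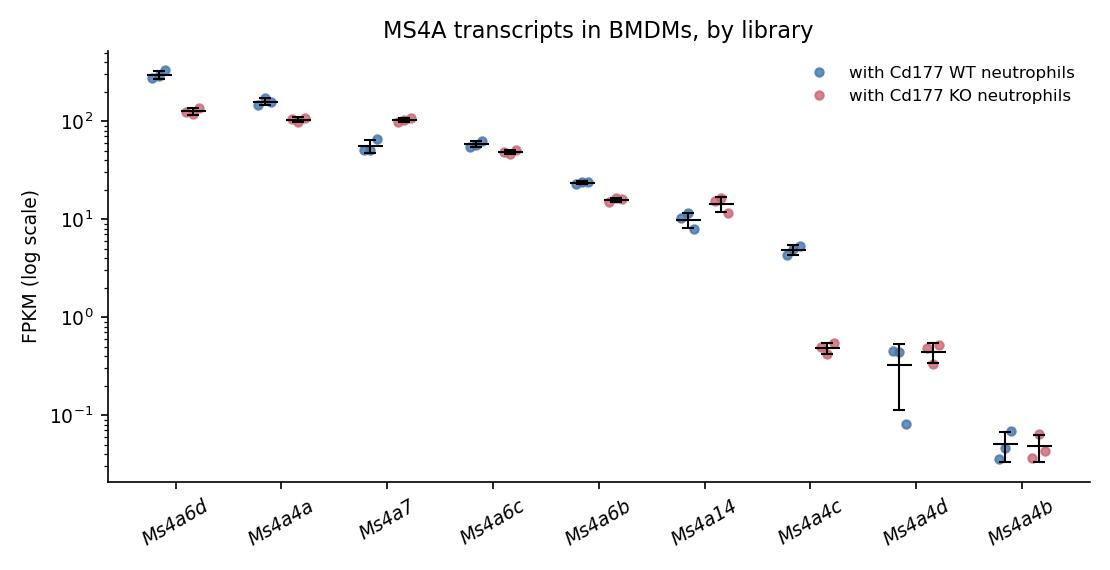
Level of 9 members in each library, in FPKM on a log axis, with WT and KO libraries side by side; points are libraries, ticks are means and bars are the SD over 3 libraries, and Ms4a8a is left out because 5 of its 6 values were 0. Ms4a6d led in both groups, and Ms4a4c dropped from between 4.27 and 5.32 FPKM to between 0.416 and 0.543.

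Ms4a6d (ENSMUSG00000024679, chr19:11586604-11604849) was the most abundant member per length. It encodes a macrophage membrane protein reported to act in inflammatory activation. It measured 273, 288 and 329 FPKM in the WT libraries and 123, 118 and 136 FPKM in the KO libraries. The highest KO library lay far below the lowest WT library. The difference was -1.24 (SE 0.10, 95% confidence interval -1.48 to -0.99; adjusted p = 0.000206, limma with Benjamini-Hochberg adjustment), or -1.42 relative to the median gene. The level was 2.36-fold higher in WT, and in FPKM this was the widest gap of any member, from a mean of 297 ± 28.6 to 125 ± 9.33 (SD, n = 3 each).

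Ms4a4c (ENSMUSG00000024675, chr19:11404770-11427246) had the largest difference on the log2 scale among the members. It is a member of the MS4A4 branch of mice. It measured 4.27, 4.96 and 5.32 FPKM in WT and 0.495, 0.416 and 0.543 FPKM in KO. All KO values lay near the 0.5 FPKM that was added before the logarithm, which shrinks the fitted difference. That difference was -2.44 (SE 0.12, interval -2.74 to -2.14; limma, adjusted p = 2.34e-05), or -2.63 relative to the median gene, a 5.42-fold higher fitted level in WT, whereas the ratio of the group means was 10. At the implied depth the values correspond to roughly 140 to 165 fragments in a WT library and 15 to 17 in a KO library. Fragment numbers here and below take the longest annotated transcript as the length, and are rough estimates, not recovered counts.

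Ms4a4a (ENSMUSG00000101389, chr19:11375523-11392790), next in abundance in WT, is the ortholog of human MS4A4A, a surface marker of alternatively activated macrophages that associates with dectin-1. It measured 145, 171 and 158 FPKM in WT and 106, 96.8 and 108 FPKM in KO. The groups did not overlap and lay closer together than those of Ms4a6d. The difference was -0.60 (SE 0.09, interval -0.82 to -0.38; limma, adjusted p = 0.00283), or 1.52-fold, and -0.79 relative to the median gene. Ms4a6b (ENSMUSG00000024677, chr19:11516512-11531256), which was more than an order of magnitude lower than Ms4a6d in WT, measured 22.8, 24.0 and 23.8 FPKM in WT and 14.8, 16.4 and 16 in KO. The libraries of each group were close together, and the difference of -0.57 (SE 0.08, interval -0.75 to -0.38; limma, adjusted p = 0.0019), or -0.75 relative to the median gene, was close in size to that of Ms4a4a, although no test of the one against the other was made.

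Ms4a7 (ENSMUSG00000024672, chr19:11321039-11336146) moved the other way. It is a marker of macrophages derived from the bone marrow and of those at the borders of the brain, and is low in microglia. It measured 51.0, 50.5 and 65.4 FPKM in WT and 97.8, 102 and 107 FPKM in KO. The highest WT library stayed well below the lowest KO library. The difference was 0.88 (SE 0.12, interval 0.60 to 1.17; limma, adjusted p = 0.00158), a 1.85-fold higher level in KO, and 0.70 relative to the median gene.

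Both members that were not called lay close to the threshold. Ms4a6c (ENSMUSG00000079419, chr19:11469366-11482192) measured 54.1, 57.2 and 62.1 FPKM in WT and 48.3, 46.3 and 50.2 in KO, so the gap between the groups was narrow. The difference was -0.26 (SE 0.08, interval -0.46 to -0.05; limma, adjusted p = 0.0531), and -0.44 relative to the median gene; scaled by median-of-ratios size factors it was -0.48 with an adjusted p of 0.0106 (limma). An antisense transcript, BE692007, overlaps Ms4a6c and measured 7.06, 8.36 and 7.25 FPKM in WT and 6.19, 5.85 and 5.51 in KO (difference -0.34; limma, adjusted p = 0.0361). Whether counting used the strand is not given in the sources used here, so reads of the overlap cannot be told apart. Ms4a14 (ENSMUSG00000099398, chr19:11301249-11314454), the neighbour of Ms4a7, measured 10.3, 11.4 and 7.90 FPKM in WT and 15.1, 16.2 and 11.5 in KO. Replicate 3 was the lowest of both groups, and the KO one nearly touched the highest WT value. The difference was 0.51 (SE 0.18, interval 0.10 to 0.93, limma adjusted p = 0.0581), or 0.32 relative to the median gene. Without that KO library it was 0.65 (limma, adjusted p = 0.0337). Leaving out any other library gave 0.37 to 0.62 and no call. Scaled by median-of-ratios size factors it was 0.29 with an adjusted p of 0.214 (limma).

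The remaining 3 members were too low for a test. Ms4a4d measured 0.448, 0.438 and 0.0807 FPKM in WT and 0.484, 0.328 and 0.517 in KO, with overlapping groups. Ms4a4b, known from T cells, where it modulates their activation, measured 0.0357, 0.0463 and 0.0685 in WT and 0.0363, 0.0645 and 0.0429 in KO, also with overlap. Its values correspond to 3.0 to 6.2 fragments per library at the implied depth. Ms4a8a, known to be induced in alternatively activated and tumour-associated macrophages of mice, had 0.117 FPKM in WT replicate 1, about 2.6 fragments, and was listed at 0 in the other 5 libraries. With no filter on low levels none of the 3 was called (limma, adjusted p = 0.559 for Ms4a4d, 0.938 for Ms4a4b and 0.527 for Ms4a8a), so a difference was not detectable at this depth.

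The order of the levels changed between the groups. In WT it ran from Ms4a6d and Ms4a4a through Ms4a6c, Ms4a7, Ms4a6b, Ms4a14 and Ms4a4c to the 3 untested members, and among the tested ones only Ms4a6c and Ms4a7 overlapped as neighbours in that order. In KO Ms4a6d was still first, but Ms4a4a and Ms4a7 overlapped in place 2, Ms4a6c followed, Ms4a6b overlapped with Ms4a14, and Ms4a4c overlapped with Ms4a4d. As a share of the summed FPKM of the 10 members, Ms4a6d went from 48.9% ± 1.54 in WT to 30.5% ± 0.998 in KO, and Ms4a7 from 9.15% ± 0.867 to 25.0% ± 0.865 (SD, n = 3 each). The shares of Ms4a4a overlapped between the groups, at 26.1% ± 1.95 and 25.2% ± 0.906. Ms4a6c took 9.53% ± 0.104 and 11.8% ± 0.12, and Ms4a6b 3.89% ± 0.212 and 3.83% ± 0.26. Ms4a14 took 1.64% ± 0.372 and 3.50% ± 0.726, and Ms4a4c 0.798% ± 0.0326 and 0.118% ± 0.0114.

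**Figure D2:**
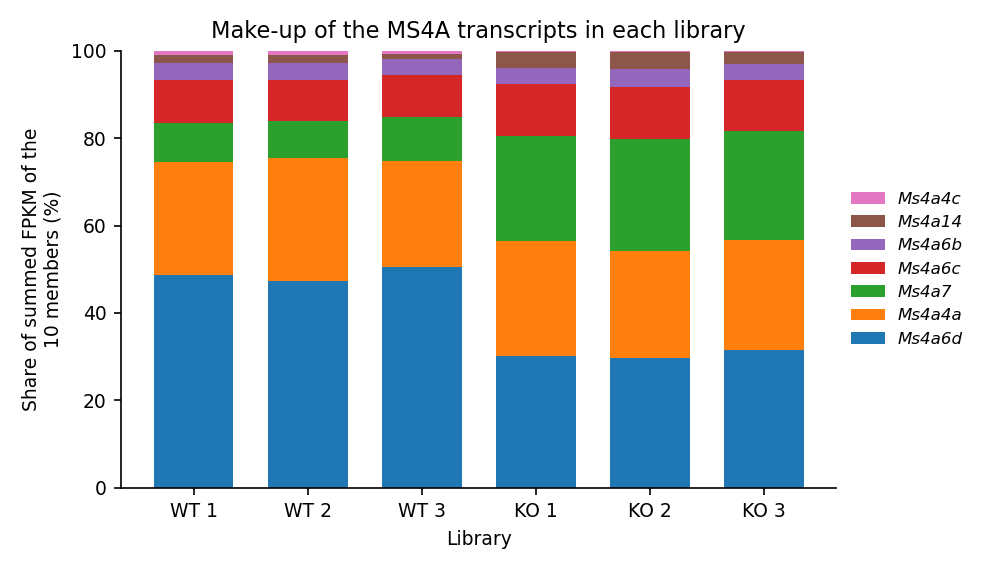
Share of the summed FPKM of the 10 members taken by each member, in percent, as 1 stacked bar for each of the 6 libraries, starting at 0. Ms4a6d took 47.4 to 50.5% in the WT libraries and 29.7 to 31.6% in the KO libraries, and Ms4a7 took 8.32 to 10.1% and 24.1 to 25.8%.

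Ratios of genes within a library do not depend on the size factor by which a library is scaled. The ratio of Ms4a7 to Ms4a6d was 0.186, 0.176 and 0.199 in WT and 0.796, 0.869 and 0.790 in KO. Per length, Ms4a7 was thus below Ms4a6d in every library, and nearer to it in all KO libraries than in any WT library. Among the MS4A6 copies, the ratio of Ms4a6d to Ms4a6c was 5.06, 5.03 and 5.29 in WT and 2.54, 2.54 and 2.70 in KO, and that of Ms4a6c to Ms4a6b was 2.37, 2.38 and 2.62 in WT and 3.26, 2.83 and 3.15 in KO. The 3 copies therefore did not keep their proportions, and for both ratios the groups did not overlap. Ms4a4a exceeded Ms4a4c by a factor of 34.0, 34.4 and 29.6 in WT and 215, 233 and 198 in KO. The ratio of Ms4a14 to its neighbour Ms4a7 was 0.202, 0.225 and 0.121 in WT and 0.154, 0.159 and 0.108 in KO, with overlap.

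Along the chromosome, Ms4a14 and Ms4a7, adjacent on the minus strand, had the positive differences, while the tested members from Ms4a4a to Ms4a6d had negative ones. Of the 70 other annotated genes within 500 kb of the cluster, 20 were tested. Against 27.1% higher and 10.5% lower over all genes tested, 4 of these 20 were called higher and 6 lower, with a median of -0.02. The 3 largest differences among them were all lower in KO. AW112010, a transcript inside the cluster that is known to be induced in macrophages by interferon and bacterial products, measured 72.4, 71.0 and 102 FPKM in WT and 1.55, 1.30 and 1.87 in KO (difference -5.30, SE 0.17; limma, adjusted p = 3.6e-06). Slc15a3, a peptide and histidine transporter of endolysosomes, measured 186, 190.0 and 172 in WT and 47.2, 44.6 and 41.8 in KO (difference -2.02; limma, adjusted p = 1.05e-05). Tmem132a, a transmembrane protein gene, measured 77.7, 60.6 and 52.9 in WT and 20.8, 22.1 and 22.7 in KO (difference -1.51; limma, adjusted p = 0.000374).

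**Figure D3:**
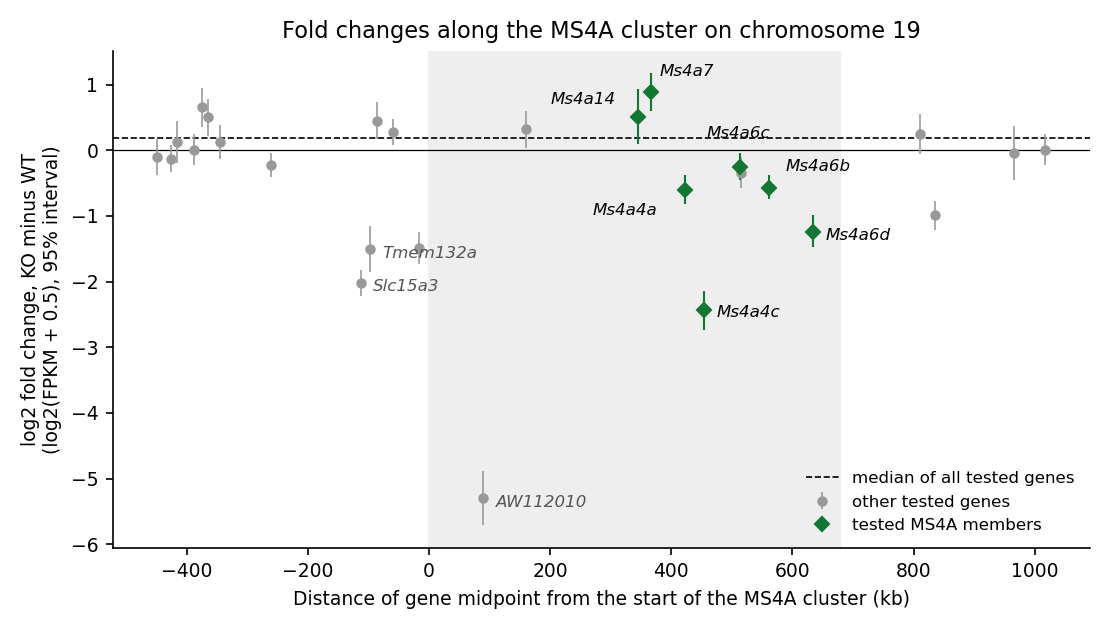
Difference in log2(FPKM + 0.5), KO minus WT, of each tested gene in and within 500 kb of the MS4A cluster against the distance of its midpoint from the start of the cluster in kb; diamonds are MS4A members, circles other genes, bars 95% confidence intervals, shading the cluster and the dashed line the median of all tested genes at 0.19. Ms4a14 and Ms4a7 lie above 0 and the other 5 tested members below it, and AW112010 is the lowest point at -5.30.

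Other branches of the family were close to absent. Of 11 further MS4A genes in the table, 7 were listed at 0 in all 6 libraries, among them Ms4a2, and none reached the level for a test. Ms4a1 (CD20) reached 0.0447 FPKM at most. Ms4a3, a gene of granulocyte and monocyte progenitors, measured 0.45, 0.199 and 0.248 FPKM in WT and 0.317, 0.157 and 0 in KO, with overlap. Tmem176a and Tmem176b, related in sequence to the MS4A genes and located elsewhere in the genome, were both higher in KO. Tmem176a measured 12.0, 11.9 and 13.4 FPKM in WT and 22.3, 21.7 and 24.4 in KO (difference 0.85, SE 0.09; limma, adjusted p = 0.00056). Tmem176b measured 25.7, 24.6 and 37.4 in WT and 53.2, 51.1 and 70.2 in KO (difference 0.99, SE 0.19; limma, adjusted p = 0.00754).

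Genes whose products are linked to MS4A proteins in macrophages (receptors, adaptors, Fc receptors and the sheddases of TREM2) did not share a direction. Of 14 tested, 3 were higher, 3 were lower and 8 were not called, with a median of 0.16. The shares over all genes tested were 27.1% higher and 10.5% lower. Clec7a, which encodes dectin-1, a receptor for fungal glucans, measured 578, 581 and 628 FPKM in WT and 105, 113 and 112 in KO (difference -2.43, SE 0.08; limma, adjusted p = 3.71e-06). The difference of Ms4a4a, whose product associates with dectin-1, was -0.60 on the same scale. Trem2, a lipid-sensing receptor, measured 83.6, 78.2 and 96.9 in WT and 132, 130.2 and 153 in KO (difference 0.68, SE 0.11; limma, adjusted p = 0.00383). Tyrobp, its adaptor, measured 543, 526 and 640.5 in WT and 795, 815 and 704 in KO (difference 0.44; limma, adjusted p = 0.0211), which was not called after median-of-ratios scaling (0.21; limma, adjusted p = 0.248) or upper-quartile scaling (0.35; limma, adjusted p = 0.0517).

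The Fc receptors for IgG were divided. The inhibitory receptor Fcgr2b measured 23.3, 21.9 and 22.9 FPKM in WT and 45.9, 46.4 and 44.4 in KO (difference 0.99; limma, adjusted p = 0.000121). The activating receptors Fcgr1 (118 to 123 in WT, 33.0 to 34.3 in KO; difference -1.83) and Fcgr4 (58.7 to 72.4 and 28.0 to 31.7; difference -1.10) were lower, with adjusted p of 7.16e-06 and 0.000342 in limma. The activating receptor Fcgr3 (0.14) and the shared signalling chain Fcer1g (0.05) were not called, and their differences turned negative after median-of-ratios scaling (-0.09 and -0.18). After quantile normalization Fcgr3 was called higher (0.26; limma, adjusted p = 0.0337). The other genes not called were Syk (-0.38), Plcg2 (0.18), Vsig4 (0.26), Adam10 (0.19), Adam17 (-0.38) and Apoe (0.19), of which Apoe ranged from 864 to 2319.7 FPKM within WT alone. Syk was called lower after median-of-ratios scaling (-0.61; limma, adjusted p = 0.0237), while Plcg2, Adam10 and Apoe changed sign there.

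The genes most like Ms4a6d in pattern over the 6 libraries, among 6827 genes outside the family whose mean reached 5 FPKM, were H2-T22 (Pearson r of log2 levels 0.9993, mean of 34.2 FPKM in WT and 11.7 in KO), Gpsm2 (0.9993, 6.46 and 3.56) and Ccl9 (0.9991, 167 and 71.2). H2-T22 is a non-classical MHC class I gene, and Ccl9 a chemokine of myeloid cells. For Ms4a4c they were the kinase gene Sgk1 (0.9992, 161 and 27.7), the collagenase gene Mmp13 (0.9991, 67.5 and 5.75) and the chemokine gene Cxcl3 (0.999, 31.0 and 0.0149). As the libraries form 2 groups, such correlations mostly carry the difference between them: 593 genes had an r above 0.95 with Ms4a6d, and 591 with Ms4a4c.

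The 5 called members kept their direction and an adjusted p under 0.05 in each of the 16 other settings (15 for Ms4a4c). The differences ranged from -1.46 to -1.15 for Ms4a6d, -0.83 to -0.54 for Ms4a4a, -0.79 to -0.53 for Ms4a6b, -3.08 to -1.97 for Ms4a4c and 0.66 to 1.01 for Ms4a7. Their adjusted p (limma) was at most 0.0175, for Ms4a4a. A fold threshold was not among these settings. Requiring a fold above 2 and an unadjusted limma p under 0.05 left 0 members higher and 2 lower (Ms4a6d and Ms4a4c). Ms4a7, Ms4a4a and Ms4a6b did not pass it. The study's methods name the same cut-offs, there with DESeq2. Ms4a6c ranged from -0.48 to -0.20 and Ms4a14 from 0.29 to 0.65, with no change of sign, and each crossed the threshold under some settings. Ms4a6c was called lower with the replicate block and under every other scaling, TPM included (limma, adjusted p 0.0106 to 0.0354). Ms4a14 was called higher with the block and without KO replicate 3, and under none of the other scalings.

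**Figure D4:**
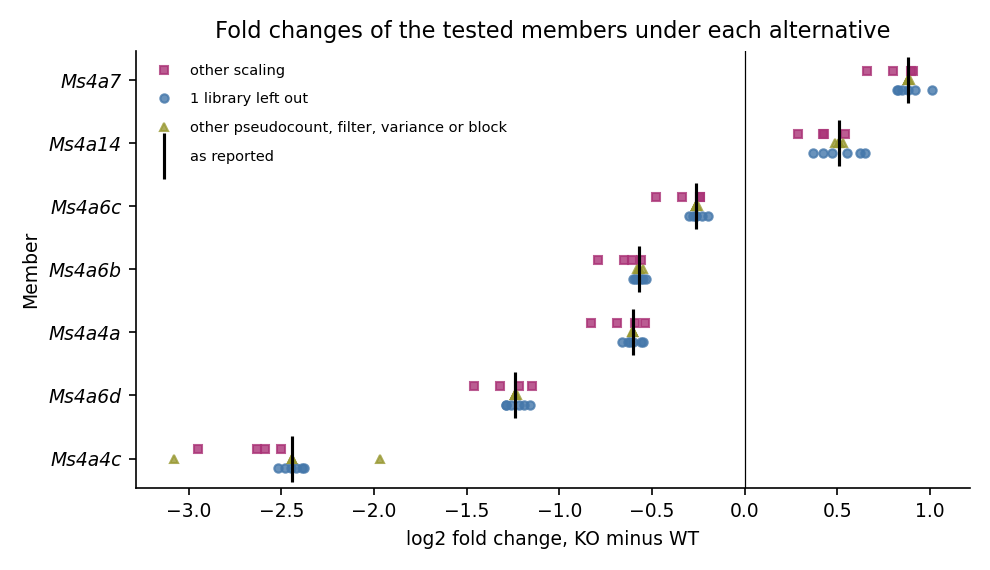
Difference in log2 level, KO minus WT, of the 7 tested members under each other setting; squares are other scalings, circles leave out 1 library, triangles change the pseudocount, the filter, the variance model or add a replicate block, and vertical bars are the values as reported. No member crosses 0, and Ms4a4c spreads most, from -3.08 to -1.97.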

How the data were processed

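The authors deposited gene levels of 6 libraries as FPKM in a table of 55335 Ensembl genes. By the submitters' processing notes, fastp 0.17.1, HISAT2 2.1.0, R 3.4.3 and DESeq2 1.18.1 were used, without their roles. The counting tool, annotation, genome build and treatment of strand are not given in the sources used here, and the labels and the study's methods name different sequencers. Between 39.7% and 43.5% of low values lay within 0.1 of a whole number of steps (20% by chance), so reads could not be recovered and no count model was used. Symbols and positions came from GENCODE M21 (99.7% of identifiers matched) and promoters from RefSeq. RefSeq proteins were planned for the likeness of members and were not used here; coding sequences took their place.

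Groups followed the labels. The table was tested with limma 3.58.1 in R 4.3.3 (linear model, empirical Bayes with trend, two-sided) on log2(FPKM + 0.5), for the 13367 genes whose mean reached 0.5 FPKM, without covariates, and adjusted by Benjamini-Hochberg over all of them. Intervals are at 95%. The code was tested on simulated data. The members, by name, and the gene lists (related MS4A genes, partners, cell type markers, interferon response) were chosen with earlier results of these data known. Named were all members, the tested related and partner genes, up to 4 markers a list (more for dendritic cells), the 3 largest called neighbours and the 3 genes most like Ms4a6d and Ms4a4c. BE692007 was named after its values were seen, for its overlap with Ms4a6c. Alternatives were other pseudocounts, filters, scalings, TPM, a robust variance, a fold threshold, a replicate block and leaving out each library. Replicate numbers did not pair the libraries throughout: deviations from the group means correlated by 0.116, 0.036 and 0.264 for numbers 1, 2 and 3. The value for number 3 was the highest of any WT library with any KO library.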

Additional observations from a re-analysis of the deposited data

How the results depend on the processing

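None of the 7 tested members changed sign under any setting. Ms4a6c, reported at an adjusted p of 0.0531, was called in 5 of 16 settings (limma adjusted p 0.0106 to 0.175), and Ms4a14 in 2 of 16 (0.00473 to 0.214). Ms4a4c could not be tested at a mean of at least 5 FPKM. Median-of-ratios scaling called 2057 of all genes higher and 2259 lower (47.7% higher, against 72.0% of 3619 and 1408 as reported), quantile normalization 2426 and 1928 (55.7%), and a mean of at least 5 FPKM left 1756 higher. Requiring a fold above 2 and an unadjusted p under 0.05 left 893 higher and 592 lower over all genes, and 0 members higher and 2 lower. It left 0 related MS4A genes, 0 partners and 0 neighbours higher, and 3 partners and 4 neighbours lower. Neighbours called higher numbered 1 after median-of-ratios scaling and 2 each after upper-quartile scaling, quantile normalization or the stricter filter. Leaving out each library in turn gave 2442 to 4228 of all genes higher and 1047 to 1717 lower, 1 to 2 members higher and 4 to 4 lower, 1 to 5 neighbours higher and 5 to 7 lower, 2 to 3 partners higher and 3 to 4 lower, and 2 related genes higher; neighbours higher numbered 1 without WT replicate 1 or KO replicate 2 and 2 without WT replicate 2 or KO replicate 1, and Ms4a14 was the added member, without KO replicate 3. The replicate block gave 2 members higher and 5 lower, 4253 of all genes higher and 1681 lower. Whether libraries of the same number belong together is not given in the sources used here. WT replicates 1 and 2 correlated better with KO replicates 2 and 1 (0.16 and 0.121) than with their own numbers. WT replicate 3 correlated best with its own number (0.264, against -0.174 and -0.14 with KO replicates 1 and 2). Ms4a4b, Ms4a4d and Ms4a8a, at 14.4 implied fragments or fewer, were tested only with no filter, which called none of them, and their level limits what could be seen.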
